A study of Homo sapiens with 14 samples.

Results

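The genes described here are the histone and histone variant genes counted in endothelial libraries primed on the poly(A) tail. They were every gene of either deposited table whose symbol began with HIST and a cluster number, was H1F0 or H1FX, began with H2AF followed by J, V, X, Y or Z, or began with H3F3. That gave 35 of the 12202 genes listed in either table, 25 of them replication-dependent HIST genes and 10 variant or replacement genes, of which H3F3AP4 is a processed pseudogene. The HIST genes were 4 linker H1, 7 H2A, 8 H2B, 2 H3 and 4 H4 genes. The centromeric protein CENPX belongs to the same choice by symbol, but the tables list its gene ID under the older symbol STRA13, so it is given with the centromeric genes further on, as is the centromeric H3 variant CENPA. Histone genes outside the 2 tables were not analysed here.

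Histones package DNA into nucleosomes, with H2A, H2B, H3 and H4 in the core and H1 on the linker. Replication-dependent histone genes are transcribed mainly in S phase, and most of their mRNAs end in a conserved stem-loop, bound by SLBP, in place of a poly(A) tail. Some of them also yield polyadenylated transcripts from a signal further downstream, which oligo-dT priming can capture. Oligo-dT can also prime on A-rich stretches within an RNA. Variant histone genes are expressed outside S phase as well, and most of their mRNAs carry poly(A) tails.

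The cells were of the line teloHAEC, telomerase-immortalised endothelium of the human aorta. One arm set 4 libraries of cells reverse-transfected with siRNA to CALCRL, which encodes the calcitonin receptor-like receptor, against 4 of cells given scrambled siRNA, with RNA taken after 24 hours. The other arm set 3 libraries of cells given Cas9 ribonucleoproteins by electroporation, with guides on both sides of an enhancer (enhancer-8), against 3 of cells given Cas9 with a guide to HPRT, with RNA taken 2 days later. Controls of that arm therefore also received Cas9 with a guide, and how far they were cut is not known here. The edited cells were collected as a population with no cloning step in the protocol. All 14 libraries were 3' mRNA libraries (QuantSeq FWD) read for 86 cycles from one end.

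The authors' deposited tables give 1 row per gene and comparison and no value for a single library, so no histone level can be shown sample by sample, and neither outlying libraries nor the depth of a library can be checked. The labels do not say whether the libraries of a group came from separate cultures, so the p-values measure the spread between these libraries, which may be technical. CALCRL itself in the authors' deposited tables was at a log2 fold change of -1.56 (SE 0.17, adjusted p = 1.9e-17) under siRNA and -1.47 (SE 0.43, adjusted p = 0.00962) after the deletion. HPRT1, which the control guide targets, was at -0.09 (SE 0.50) in the authors' deposited deletion table. Of the marker genes looked up, 11 of 12 endothelial genes were listed in each table, against 0 of 5 fibroblast, 0 of 3 blood, 1 of 4 smooth muscle and 2 of 4 epithelial genes. The endothelial gene listed in neither was PECAM1. Mean counts were low for endothelial VWF (18.7) and EMCN (9.78) in the deletion arm. In the authors' deposited tables, endothelial EGFL7 (-0.46) fell under siRNA. Endothelial CDH5 (-1.44) and KDR (-1.05) fell and epithelial KRT18 (1.13) rose after the deletion in the same tables. These are the markers called at an adjusted p under 0.05. Of the 11 endothelial genes listed, 4 lay above 0 under siRNA (median -0.08) and 6 after the deletion (median 0.05). The part of the markers in the histone values was not tested.

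The stem-loop was found mostly in HIST genes, whereas a poly(A) signal near the annotated end was found in both classes. The stretches below show both features. Sequences and positions were taken from GENCODE release 29 transcripts on GRCh38, whereas the submitters' processing notes name hg19. Of the 35 genes, 27 matched by gene ID and 8 by symbol. The first set gives the stem-loop of 5 HIST genes and of H2AFX, with the 16 bases of the stem-loop in capitals.
HIST1H2AC: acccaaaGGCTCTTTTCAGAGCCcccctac
HIST1H2AE: aaccaaaGGCTCTTTTCAGAGCCacccacc
HIST1H2BF: tcccaaaGGCTCTTTTAAGAGCCacccact
HIST1H4H: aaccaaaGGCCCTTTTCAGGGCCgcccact
HIST1H4J: caataaaaGGCCCTTTTCAGGGCCacccta
H2AFX: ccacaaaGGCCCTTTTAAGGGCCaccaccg
In HIST1H4J the annotated transcript ends 6 bases after the stem-loop, while in HIST1H2AC it runs on for 1114 bases and in HIST1H4H for 630 bases. The next set gives the poly(A) signal, in capitals, near the annotated end of 4 genes of either class.
HIST1H2AC: agcctggcatgaggtAATAAAaggtaatgc
HIST1H2BD: aaagttataattAATAAAatctgcggagaa
H2AFZ: gtggataagttcAATAAAggtcatatccca
H1FX: ttttttgggcacAATAAAgcgtttaaacct
HIST1H4C, the most abundant HIST gene of both tables, has neither feature in its annotated 3' UTR of 51 bases. Its annotated transcript closes on a run of 20 bases, in capitals, of which 18 are A.
HIST1H4C: tgagaacttcAAAAAACAAAAACAAAAAAA

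Only the transcript with the longest annotated 3' UTR of each gene was searched. A stem-loop or signal present only in another transcript of the gene was therefore not seen. A match of the histone stem-loop was found in 10 of the 15 HIST genes whose 3' UTR is annotated and in 1 of 9 variant genes, H2AFX. Over all 10970 genes of the tables with an annotated 3' UTR, 15 held one (0.137%), so these histones made up most of them. A poly(A) signal, AATAAA or ATTAAA, lay in the last 40 bases of 10 of 15 HIST genes, 6 of 9 variant genes and 76.3% of all genes. In HIST1H4J that signal, 15 bases after the stop codon, precedes the stem-loop, which starts 22 bases after it. The annotation gives no 3' UTR for the other 10 HIST genes, among them HIST1H1B, HIST1H1C and HIST1H1D, whose annotated transcripts stop with the coding region, and for the pseudogene H3F3AP4. At least 6 A in a row, as HIST1H4C holds, lay in the last 500 bases of 7 of 25 HIST genes. The same was found in 3 of 10 variant genes and 35.6% of all genes. Median GC content of the last 500 transcript bases was 54.4% for HIST genes, 48.4% for variant genes and 41.8% over all genes. For HIST genes without an annotated 3' UTR this is the GC content of coding sequence. For transcripts shorter than 500 bases the whole transcript was taken.

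**Figure D1:**
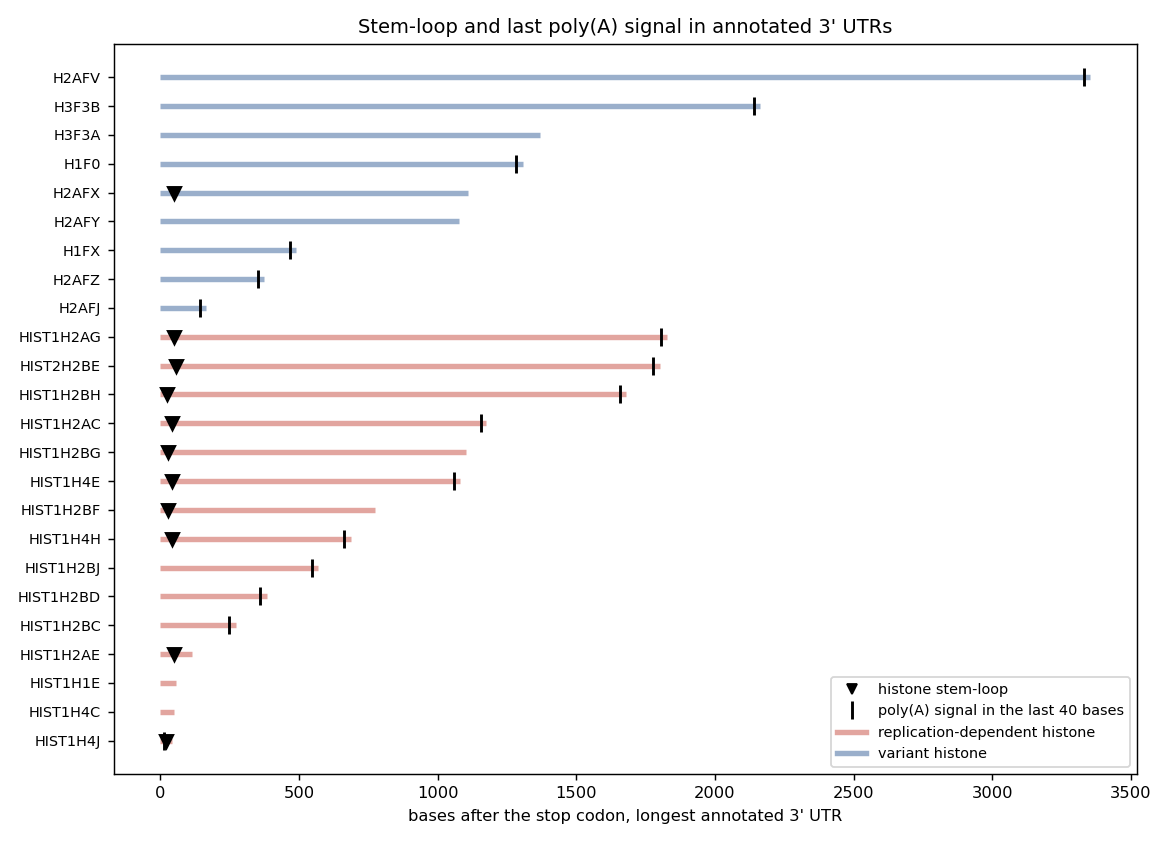
Longest annotated 3' UTR of each of the 24 histone genes that have one, with the distance from the stop codon in bases on the x axis. The histone stem-loop is shown as a triangle and a poly(A) signal in the last 40 bases as a bar. The stem-loops sit within 56 bases of the stop codon, and in HIST1H2AC, HIST1H2AG, HIST1H2BH, HIST1H4E, HIST1H4H and HIST2H2BE a poly(A) signal lies near the far end of the UTR.

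In the 250 bases before and 50 bases after the start of each gene (RefSeq, GRCh38.p14; 29 genes matched, both strands searched), CCAAT was found in 18 of 21 HIST promoters, 6 of 8 variant promoters and 35.7% of all 27305 promoters. TATAAA was found in 14 of 21, 4 of 8 and 12.0%. The octamer ATTTGCAT, an element known from H2B promoters, was found in 12 of 21, 1 of 8 and 1.80%, and in 4 of the 5 H2B promoters matched. All 7 HIST H2A promoters held the octamer as well. HIST1H2AG lies head to head with HIST1H2BJ, and HIST2H2AC with HIST2H2BE. The windows of such neighbours can overlap, so the same match may be counted for both genes. These matches describe the windows and not the binding of any factor.

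HIST transcripts were scarce in these libraries. Their mean normalised counts summed to 0.0400% of the total under siRNA and 0.0905% in the deletion table, and HIST1H4C, a core H4 gene, made up 49.6% and 83.0% of those sums. The mean was under 50 for 16 of the 20 HIST genes listed under siRNA and for 14 of the 19 listed in the other table, and the median mean was 20.4 and 26.6 against 130 over all genes of either table. Variant genes were more abundant, with medians of 632 and 489. The highest means in the authors' deposited tables were 3717 (H3F3B, a replacement H3 gene) and 3338 (H2AFZ, the H2A.Z gene) under siRNA, and 5390 (H2AFZ), 3873 (HIST1H4C) and 3737 (H3F3B) after the deletion.

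Some levels stood far apart between the arms, whose tables were normalised separately and are set side by side with no test. In the authors' deposited tables the mean of HIST1H4C was 904 under siRNA and 3873 in the deletion arm. The H1 genes HIST1H1B and HIST1H1D stood at 10.8 and 54.4, and at 20.7 and 87.6, in the same order in the authors' deposited tables. HIST1H2BK (302 and 41.3), HIST1H2AC (60.4 and 10.3) and H1F0 (176 and 47.5) were the other way round in the authors' deposited tables. These are means over treated and control libraries together. Both tables listed 23 of the genes. HIST1H2AG, HIST1H2BG, HIST1H2BJ, HIST1H3D, HIST1H4E and HIST2H2BE were in the siRNA table alone, and H3F3AP4, HIST1H2AB, HIST1H2BF, HIST1H3C, HIST1H4J and HIST2H2AB in the deletion table alone. The filter behind each table is not given in the sources used here, and the lowest mean listed was 4.53 under siRNA and 3.35 after the deletion.

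Under siRNA against CALCRL, 2 histone genes of the 29 listed changed, both of them variants, at an adjusted p under 0.05 over the 11261 genes of the table (3.46% of which were called, 1.05% higher and 2.42% lower). H2AFZ, which encodes the H2A.Z protein placed at promoters and enhancers, fell to 53.0% of the control (95% interval 45.8% to 61.4%). H1FX, a linker histone variant, rose to 154% (130% to 184%). In bulk RNA, fewer cells of a kind and less RNA per cell cannot be told apart.

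In the authors' deposited siRNA table H2AFZ was at -0.92 (SE 0.11, adjusted p = 1.79e-14), with a mean normalised count of 3338. With the groups weighted equally, that mean and fold change imply group means of about 4363 counts in the scrambled libraries and 2314 in the siRNA libraries, which are derived here and were not read from the files. Its paralogue H2AFV, which encodes the second H2A.Z protein, was at 0.02 (SE 0.09) in the authors' deposited siRNA table, with a 95% interval of -0.16 to 0.20. Of the 5 H2A variants H2AFZ passed the threshold, and the intervals of H2AFV, H2AFJ, H2AFY and H2AFX each included 0.

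H1FX was at 0.63 (SE 0.13, adjusted p = 0.000131) in the authors' deposited siRNA table, which corresponds to about 496 counts in the scrambled and 767 in the siRNA libraries. The other linker variant, H1F0, known for its accumulation in cells that have stopped dividing, was at -0.10 (SE 0.13) in the authors' deposited siRNA table. Among the remaining variants H3F3B had the narrowest error, at 0.01 (SE 0.07) in the authors' deposited siRNA table, and its 95% interval ran from -0.12 to 0.14. H2AFY, the macroH2A gene, was at 0.05 (SE 0.08), H2AFJ at 0.05 (SE 0.12) and H2AFX, the damage-response variant, at -0.23 (SE 0.23) in the authors' deposited siRNA table. H3F3A stood at 1.04 (SE 0.63) in the authors' deposited siRNA table on a mean of 8.18 counts, so its interval ran from -0.20 to 2.29.

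None of the 20 HIST genes in the siRNA table was called by the DESeq2 Wald test, and 0 had an unadjusted p under 0.05, where 1354 of 11261 genes did. Of the 20, 7 lay above 0 and 13 below, and the median log2 fold change was -0.10, against a median of 0.00 over all genes and 0.02 over the 9 variants. The lowest adjusted p among them was 0.503, for HIST1H3D at -0.75 (SE 0.42) in the authors' deposited siRNA table. The median change a HIST gene needed to be called, given its error, was 1.04 on the log2 scale, against 0.37 for a variant gene. The needed change ran from 0.44 to 1.88 over the HIST genes and from 0.21 to 1.99 over the variants, and was 1 or less for 9 of the 20 HIST genes and 8 of the 9 variants. An observed change smaller than a gene's own value could not be called.

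By family, the 4 HIST H1 genes had a median of 0.48 under siRNA. HIST1H1D was at 0.70 (SE 0.44), HIST1H1E at 0.50 (SE 0.39), HIST1H1B at 0.46 (SE 0.51) and HIST1H1C, by far the most abundant, at -0.06 (SE 0.24) in the authors' deposited siRNA table. The 5 H2A genes had a median of 0.09, between -0.28 for HIST2H2AC and 0.71 for HIST1H2AJ. Of the 7 H2B genes, 6 lay below 0, with a median of -0.14. HIST1H2BD was the lowest of them at -0.38 (SE 0.26) and HIST1H2BK the most abundant at -0.24 (SE 0.14) in the authors' deposited siRNA table. All 3 H4 genes lay just below 0, from -0.19 for HIST1H4E to -0.04 for HIST1H4C. None of these intervals excluded 0.

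**Figure D2:**
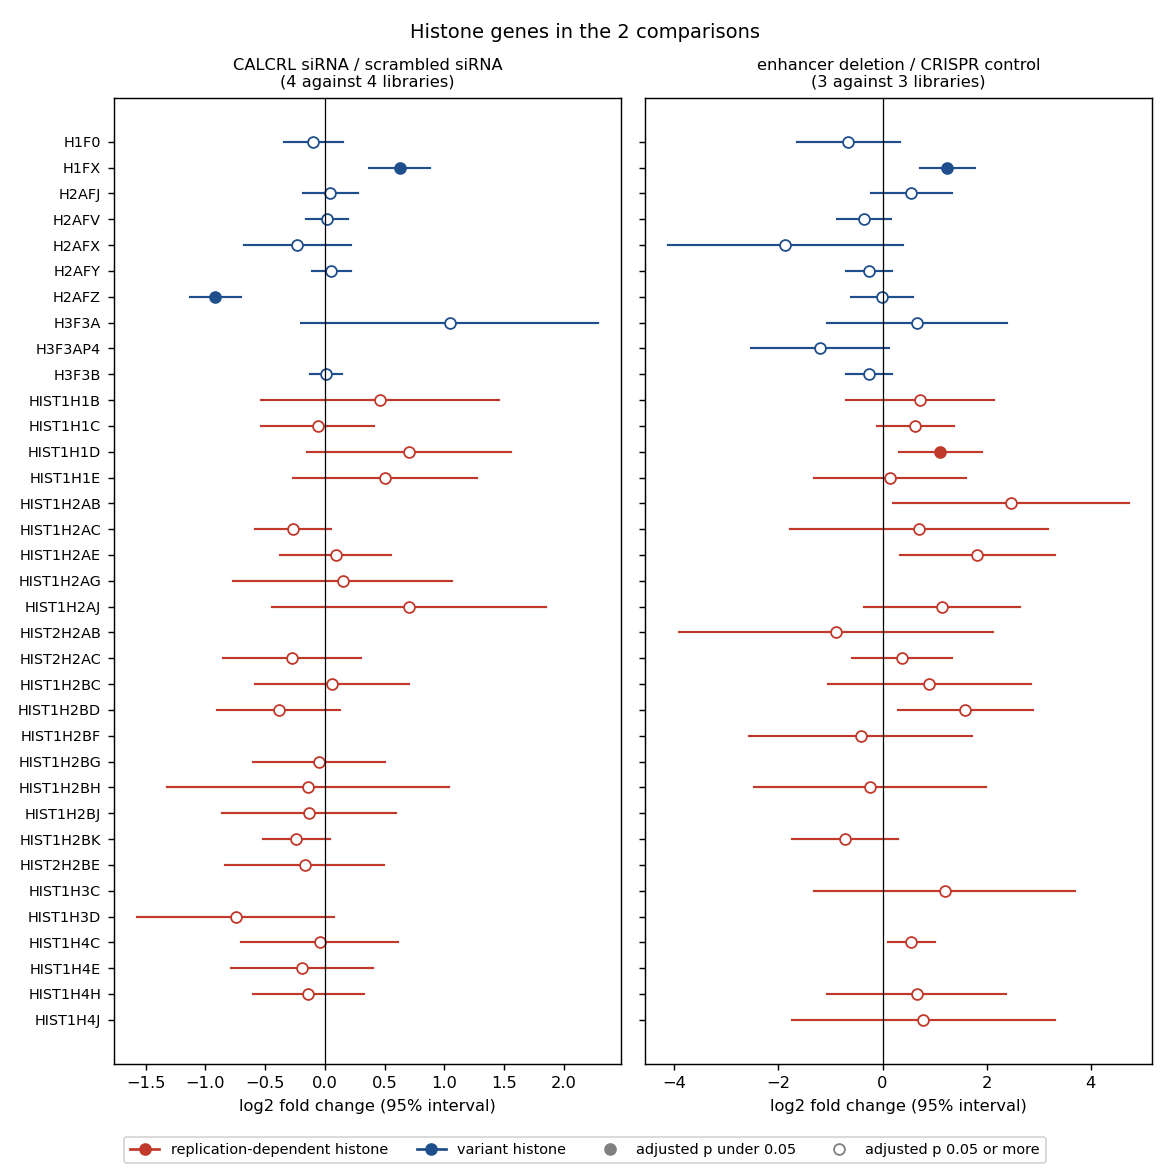
Log2 fold change with its 95% interval for each histone gene listed, under CALCRL siRNA (left, 4 against 4 libraries) and after the enhancer deletion (right, 3 against 3), with filled points for an adjusted p under 0.05. The panels have different x scales. Filled points are H1FX and H2AFZ on the left and H1FX and HIST1H1D on the right.

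After the enhancer deletion, 2 of the 29 histone genes listed changed, and both rose: the variant H1FX and the replication-dependent H1 gene HIST1H1D. Over all 11830 genes tested, 15.8% were called, 7.4% higher and 8.44% lower. H1FX stood at 237% of the control (95% interval 165% to 341%) and HIST1H1D at 216% (124% to 375%). The share of histone genes called, 2 of 29, was below that background. With a Student t reference, or with statistics divided by their robust SD, 0 histone genes and 0 of the 11830 genes were called in this arm, with 1646 and 534 of all genes and 1 histone gene in each at an unadjusted p under 0.05.

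In the authors' deposited deletion table H1FX was at 1.25 (SE 0.27, adjusted p = 0.000253) and HIST1H1D at 1.11 (SE 0.41, adjusted p = 0.0431). The implied group means were about 428 and 1015 counts for H1FX, and 55.5 and 119.8 for HIST1H1D, control first. Across the genes of this table, fold change and GC content were related (Spearman 0.310 over genes, which are not independent replicates, against 0.0806 under siRNA), and the last 500 bases of H1FX are 63.6% GC. Neither gene was called once the GC trend had been removed: H1FX was at 0.60 (adjusted p = 0.122) and HIST1H1D at 0.77 (adjusted p = 0.208). HIST1H1D has no annotated 3' UTR, so its GC content is that of coding sequence and its adjusted value is uncertain. Under siRNA the same step left H1FX at 0.61 and H2AFZ at -0.90, both still called.

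HIST genes lay mostly above 0 and variants mostly below 0 after the deletion. Of 19 HIST genes, 15 lay above 0, at a median log2 fold change of 0.71, and of 10 variant genes 3 did, with a median of -0.26. Over all genes 50.3% lay above 0, with a median of 0.00. With the GC trend removed, 13 of 19 HIST genes lay above 0 with a median of 0.39, and 3 of 10 variants with a median of -0.17. For HIST genes with no annotated 3' UTR that step rests on the GC content of coding sequence. Among genes with a mean of at least 50 the counts were 5 of 5 (median 0.63) and 2 of 7 (median -0.25). These counts describe the listed genes and carry no test, because the genes were chosen with earlier results known, and 1 of the 19 HIST genes passed the threshold.

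As deposited, all 4 HIST H1 genes lay above 0 (median 0.68), with HIST1H1C at 0.63 (SE 0.38), HIST1H1B at 0.72 (SE 0.72) and HIST1H1E at 0.14 (SE 0.74) in the authors' deposited deletion table beside HIST1H1D. HIST1H1E was at -0.32 once the GC trend had been removed. All 3 H4 genes lay above 0 (median 0.66). HIST1H4C, the best measured, was at 0.55 (SE 0.23, adjusted p = 0.0823) in the authors' deposited deletion table, about 3137 counts in the control and 4608 in the deletion libraries, and so did not pass the threshold.

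Of the 6 H2A genes, 5 lay above 0 (median 0.92). HIST1H2AB was at 2.48 (SE 1.16, adjusted p = 0.125) and HIST1H2AE at 1.82 (SE 0.76, adjusted p = 0.0807) in the authors' deposited deletion table, on means of 14.0 and 31.0 counts, and neither passed. HIST2H2AB, with the lowest mean of all (5.73), was at -0.90 (SE 1.54) in the authors' deposited deletion table. The H2B genes were split, with 2 of 5 above 0 and a median of -0.24. HIST1H2BD stood at 1.59 (SE 0.66, adjusted p = 0.0806) and HIST1H2BK at -0.72 (SE 0.52) in the authors' deposited deletion table. HIST1H3C, the only HIST H3 gene in this table, was at 1.19 (SE 1.28).

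Among the variants, H2AFZ was at -0.01 (SE 0.31) in the authors' deposited deletion table, with a 95% interval of 65.3% to 151% of the control. H2AFY (-0.27, SE 0.23), H2AFV (-0.35, SE 0.27) and H3F3B (-0.25, SE 0.23) lay close together and below 0 in the authors' deposited deletion table, none of them called. H2AFY was at -0.68 without the GC trend and was then called lower (adjusted p = 0.0288). H2AFX at -1.87 (SE 1.15), H3F3AP4 at -1.21 (SE 0.68), H1F0 at -0.66 (SE 0.51), H2AFJ at 0.55 (SE 0.39) and H3F3A at 0.66 (SE 0.88) completed the class in the authors' deposited deletion table. A HIST gene needed a median change of 2.03 on the log2 scale to be called in this table and a variant gene 0.93, so the deletion arm could show less than the siRNA arm.

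Each of the 23 histone genes of both tables was tested for a difference between the arms, and 2 differed at an adjusted p under 0.05, against 13.7% of the 10891 genes tested (7.22% higher under siRNA than after the deletion, 6.49% lower). Both were lower under siRNA than after the deletion. H2AFZ differed by -0.90 (SE 0.33, adjusted p = 0.0435), from -0.92 under siRNA and -0.01 after the deletion. HIST1H2BD differed by -1.97 (SE 0.71, adjusted p = 0.0440), from -0.38 and 1.59. Neither difference passed with a Student t reference (adjusted p = 0.386 for both) or with the robust SD (adjusted p = 0.992 for both). The arms share no libraries, but delivery, time, control and treatment differ together and cannot be told apart.

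H1FX, called higher in both arms, did not pass this test (difference -0.62, SE 0.30, adjusted p = 0.145), and its interval, not adjusted for the number of genes, ran from -1.20 to -0.04. With the GC trend removed the H1FX difference was 0.02. HIST1H2AE differed by -1.73 (SE 0.80, adjusted p = 0.126). Of the 14 HIST genes listed in each arm, 11 were lower under siRNA than after the deletion, with a median difference of -0.63, and of the 9 variants 3 were, with a median difference of 0.32. Over all genes the median difference was -0.0012. With the GC trend removed the medians were -0.21 and 0.17.

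**Figure D3:**
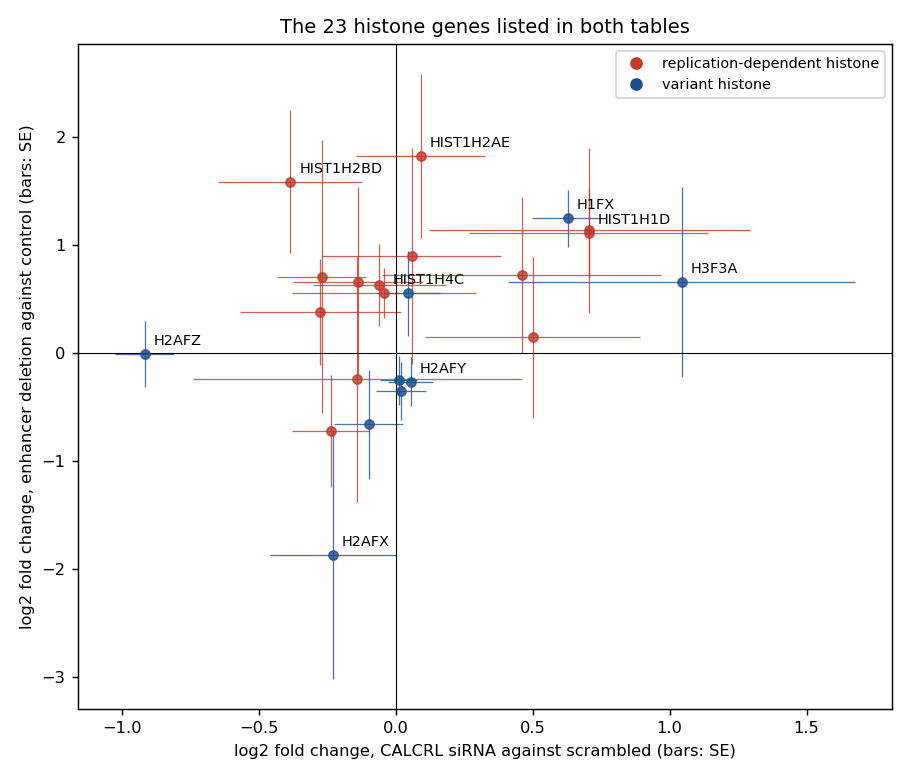
Log2 fold change under CALCRL siRNA (x axis) against that after the enhancer deletion (y axis) for the 23 histone genes of both tables, with bars of 1 SE. H2AFZ lies far to the left at the level of 0, H1FX lies to the upper right, and HIST1H2BD lies at the upper left.

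A few histone genes had errors out of keeping with their abundance. Each SE was divided by the median SE of the 200 genes nearest in mean count. In the siRNA table this ratio was 3.32 for HIST1H4C, above 99.6% of all genes, 1.91 for HIST1H1C and 1.78 for H2AFX, and 4.53% of all genes exceeded 1.5. In the deletion table it was 3.74 for H2AFX, above 99.9% of all genes, while HIST1H4C was at 1.01, and 3.66% of all genes exceeded 1.5. HIST1H4C would have needed a change of 1.05 on the log2 scale to be called under siRNA in spite of its mean of 904 counts. Which libraries carry that spread cannot be read from these tables.

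**Figure D4:**
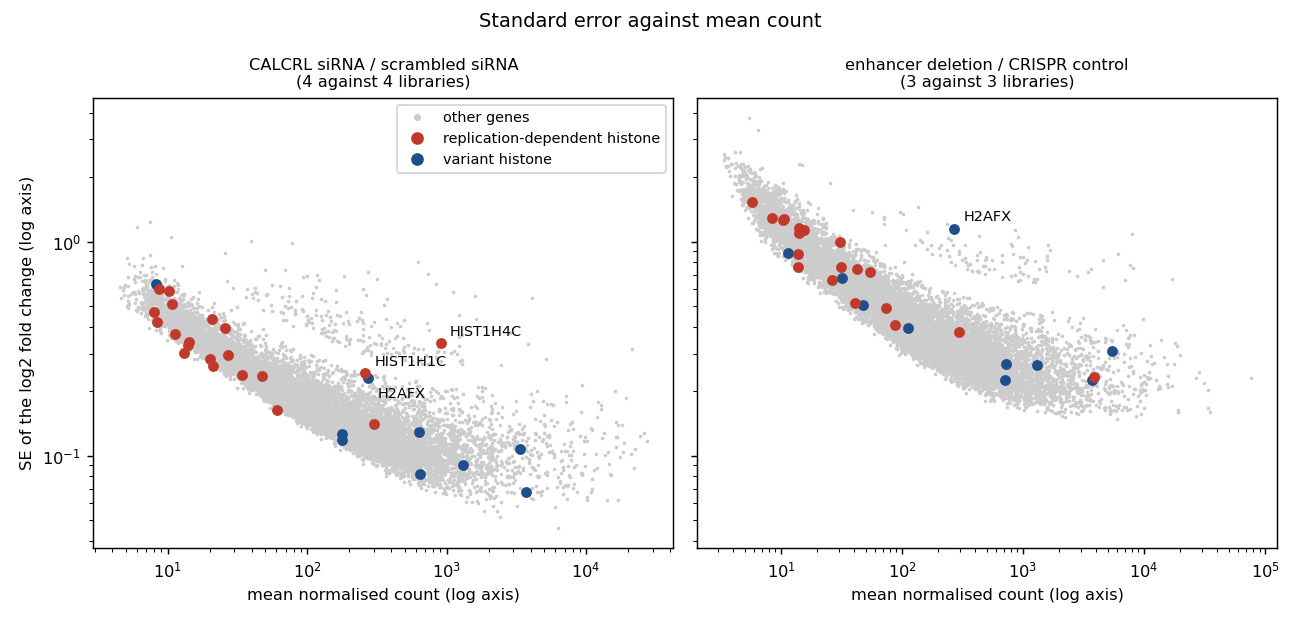
Standard error of the log2 fold change (y axis, log scale) against mean normalised count (x axis, log scale) for all genes (grey), HIST genes (red) and variant genes (blue), in the siRNA arm (left) and the deletion arm (right). HIST1H4C, HIST1H1C and H2AFX on the left and H2AFX on the right lie above the band of genes of like abundance.

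A pair of short 3' UTR words that had stood out among the siRNA calls in earlier results on these data were looked up. The longest annotated 3' UTR of each gene was searched. GTAACAA was found in 0 of 15 HIST genes, 2 of 9 variant genes and 10.2% of all genes with an annotated 3' UTR. GACGTA was found in 0 of 15, 2 of 9 and 4.67%. The stretches below show them in the 3 genes, with the word in capitals.
H2AFZ: cagaagttataGTAACAAacatttggtttt
H3F3A: ctatatttgtaGTAACAAtttcaaacaaca
H1FX: tctaccccaagtGACGTAgattttgtacgg
H3F3A: attatgcattaaGACGTAaaaggagcagtg
H2AFZ holds the first word, H1FX the second and H3F3A both. H2AFZ and H1FX were themselves among the siRNA calls from which the words had been picked, so their holding them adds no evidence. A match is a description of the sequence, and a part of these words in either change was not tested.

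Near-identical copies and overlapping genes limit several members. Stretches of 86 bases, the read length, were taken from the last 500 bases of a gene's transcripts, or from the whole of a shorter one. Sequence further upstream is not part of these shares. For H3F3AP4 (shared with H3F3A) and HIST1H3D (shared with the overlapping AL031777.3), 100% of the stretches occurred in another gene. The share was 81.8% for HIST1H2AJ, 78.8% for HIST1H4J, 38.5% for HIST1H2BK, 26.1% for H3F3A and 21.0% for HIST2H2AC, so the values of these 7 genes are uncertain. It was 0% for H1FX, HIST1H1D and HIST1H4C, 0.127% for HIST1H2BD and 1.45% for H2AFZ. H2AFZ (chr4:99948086-99950388, minus strand) overlaps AC097460.1 and H1FX (chr3:129314771-129316277, minus strand) overlaps H1FX-AS1, both on the opposite strand. H3F3B overlaps UNK and HIST2H2AB overlaps BOLA1 in the same way. So do H2AFY (C5orf66 and AC026691.1), H3F3A (AL512343.2) and HIST1H2BD (AL353759.1). Whether counting used the strand is not given in the sources used here. HIST1H1D (chr6:26234268-26234933, minus strand), HIST1H2BD (chr6:26158146-26171349, plus strand) and HIST1H4C (chr6:26103876-26104310, plus strand) lie in the large histone cluster, and HIST1H2BD overlaps LARP1P1 on its own strand.

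The genes that process, carry and exchange histones were taken from named lists, whose counts are to be read against 3.46% of all genes called under siRNA and 15.8% after the deletion (7.4% higher and 8.44% lower). Of the stem-loop processing genes (SLBP, the U7 Sm proteins and the cleavage factors among them), 0 of 26 changed under siRNA, with 0 at an unadjusted p under 0.05 and a median of -0.03. After the deletion 3 of 27 rose and 3 fell, with a median of 0.18. In the authors' deposited deletion table SNRPF, a core Sm protein, was at -2.58 (SE 0.41), CDK9 at -1.57 (SE 0.50), SRRT at 1.36 (SE 0.35), LSM10, which belongs to the U7 particle, at 0.96 (SE 0.29) and NELFE at 0.87 (SE 0.32). Once the GC trend had been removed, SRRT (0.92, adjusted p = 0.0637), LSM10 (0.64, adjusted p = 0.129) and NELFE (0.60, adjusted p = 0.211) were no longer called. In their place 2 other genes of the 27 were then called higher, and 2 genes were called lower. The poly(A) addition list had 0 of 20 called under siRNA, with 1 at an unadjusted p under 0.05, and 2 of 20 lower after the deletion. These were NUDT21 at -1.60 (SE 0.31), a cleavage factor subunit that helps select poly(A) sites, and PABPC1, the cytoplasmic poly(A)-binding protein, at -0.99 (SE 0.27) in the authors' deposited deletion table.

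Of the histone chaperones, 1 of 30 fell under siRNA: UBN2, a subunit of the HIRA complex that deposits replacement H3, at -0.84 (SE 0.17) in the authors' deposited siRNA table. After the deletion 2 rose and 3 fell. SSRP1, a FACT subunit, was at 1.01 (SE 0.20), CABIN1 at 0.70 (SE 0.26), RBBP7 at -0.95 (SE 0.26), DNAJC9 at -0.90 (SE 0.31) and MCM2 at -2.65 (SE 1.00) in the authors' deposited deletion table. Without the GC trend 5 chaperones were called higher and 2 lower, and CABIN1 (0.11, adjusted p = 0.831), RBBP7 (adjusted p = 0.0506) and DNAJC9 (adjusted p = 0.0725) were no longer called. In the complexes that place or remove H2A.Z, 1 of 25 genes changed under siRNA: INO80C rose, at 0.50 (SE 0.13) in the authors' deposited siRNA table. INO80C was lower in the authors' deposited deletion table, at -1.59 (SE 0.34), as was MORF4L1 at -1.87 (SE 0.47), while INO80B (1.57, SE 0.48), RUVBL2 (1.09, SE 0.37) and ZNHIT1 (0.88, SE 0.31) were higher. In all, 3 of the 25 rose and 3 fell there, with a median of 0.05. With the GC trend removed 0 of the 25 were called higher and 2 lower.

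The centromeric list had 0 of 12 called under siRNA, with 0 at an unadjusted p under 0.05. After the deletion CENPA, the centromeric H3 variant, stood at -3.04 (SE 0.49, adjusted p = 2.1e-07), the lowest of the list in the authors' deposited deletion table. STRA13, the older symbol of CENPX, was at 1.13 (SE 0.30, adjusted p = 0.00469), C19orf40 at 1.61 (SE 0.58) and MIS18A, needed for loading CENPA, at 1.02 (SE 0.35) in the authors' deposited deletion table. With the GC trend removed STRA13 was at 0.66 (adjusted p = 0.129) and CENPA at -2.81, still called.

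S-phase genes were set beside the HIST genes because transcription of the latter is tied to replication. Under siRNA 2 of 24 fell and 0 rose, with a median of -0.19. MCM7, a subunit of the replicative helicase, was at -0.36 (SE 0.10) and CDC6, which loads it, at -0.50 (SE 0.13) in the authors' deposited siRNA table. After the deletion 6 of 24 rose and 2 fell, with a median of 0.04. In the authors' deposited deletion table CDT1 was at 1.74 (SE 0.40), MCM5 at 1.33 (SE 0.36), MCM3 at 1.12 (SE 0.27), MCM4 at 0.99 (SE 0.27) and MCM7 at 0.94 (SE 0.22). The 2 that fell, MCM2 and CDC45, are named here after their values were seen. The S-phase list thus held calls in both directions after the deletion, and its part in the HIST values was not tested.

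**Figure D5:**
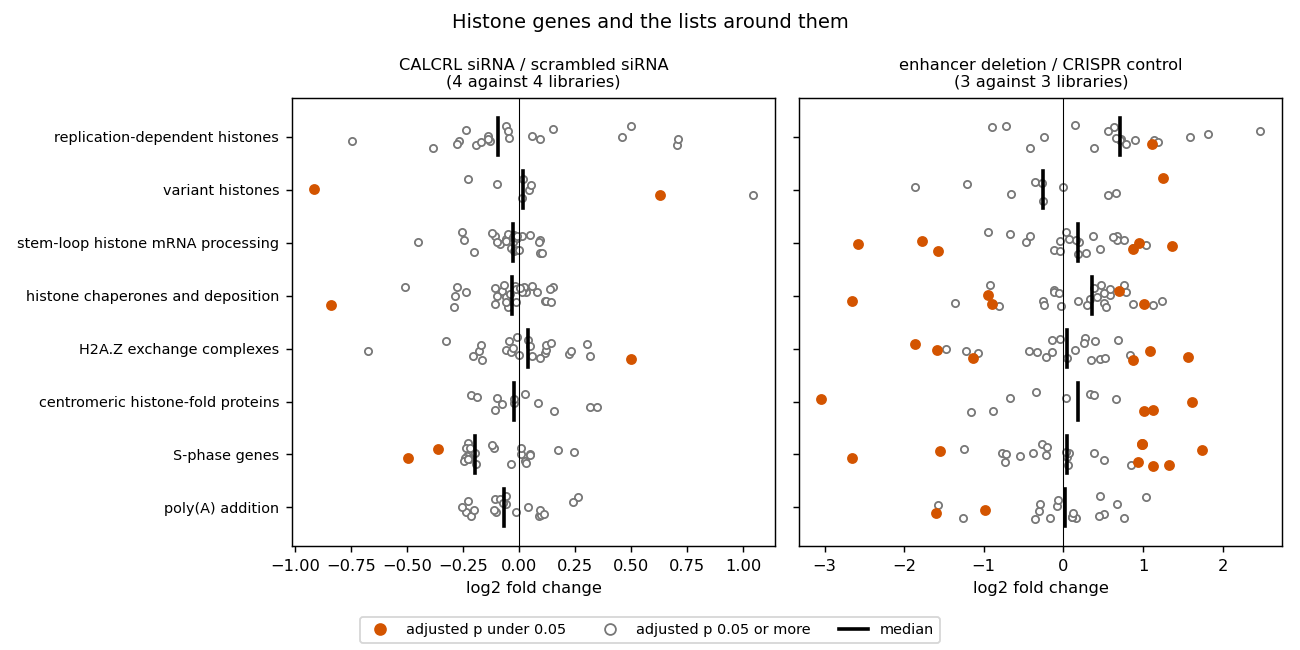
Log2 fold change of each listed gene (points, filled in orange for an adjusted p under 0.05) and the median of each list (bar), in the siRNA arm (left) and the deletion arm (right), on different x scales. On the right the median of the HIST genes is 0.71 and that of the variant histones -0.26, while the medians of the other lists lie between 0.02 and 0.36.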

How the data were processed

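The 14 libraries were compared within the siRNA arm (4 against 4) and the deletion arm (3 against 3). Per the file headers, the authors' deposited tables, 1 per arm, hold for each gene a mean normalised count, a log2 fold change with its standard error, a Wald score, its p-value and the adjusted one. The authors made them with DESeq2, per the file names. The authors' notes on processing (the submitters' processing notes) list hg19 and edgeR 3.24.3. The aligner and filters are not given in the sources used here. The deposited adjusted p equalled a Benjamini-Hochberg adjustment over the rows.

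From these values 95% intervals, percentages of control and implied group means were computed (Python 3.11.15, scipy 1.17.1), and the difference between arms was tested against the normal distribution, with Benjamini-Hochberg adjustment over 10891 genes, by a script tested on simulated data. The simulated errors were themselves drawn from a normal distribution with the deposited SE, so the simulation could not check that reference. A lowess trend (statsmodels 0.14.6, span 0.3) on GC content of the last 500 bases was removed as 1 of 5 alternatives. All histone genes of the rule were described, and CALCRL. From each list and arm at most 5 called genes were named, lowest adjusted p first. In the S-phase list MCM2 and CDC45 were added to these after their values were seen. The histone genes and the lists were chosen with earlier results of these data known.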

Additional observations from a re-analysis of the deposited data

Results flagged for a closer look

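The 2 histone genes whose changes differed between the arms are singled out because the difference itself passed the test. The H2AFZ difference, siRNA minus deletion, was -0.90 on the log2 scale, with a 95% interval of -1.54 to -0.27. H2AFZ is well counted in both arms, and its own change passed the threshold under siRNA alone. The HIST1H2BD difference was -1.97, with an interval of -3.37 to -0.57, on means of 21.1 and 26.6 counts in the authors' deposited tables, and its change passed the threshold in neither arm. Both adjusted p-values lie close to 0.05. Neither difference passed with a Student t reference (adjusted p = 0.386 for both) or with statistics divided by their robust SD (adjusted p = 0.992 for both), and under these settings 0 histone genes differed at an unadjusted p under 0.05.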

How the results depend on the processing

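Of 2 histone genes called under siRNA, 0 remained past the threshold with a Student t reference, which left 5 of 11261 genes called, and 2 histone genes at an unadjusted p under 0.05. Of 2 after the deletion, 0 were called with a Student t reference, 0 with statistics divided by their robust SD and 1 (H2AFY, lower) with the GC trend removed. The first 2 settings left 0 of 11830 genes called, with 1646 and 534 at an unadjusted p under 0.05, of which 1 was a histone gene in each. Of 2 differences between the arms, 0 passed with a Student t reference, 0 with the robust SD (0 histone genes at an unadjusted p under 0.05 in either) and 1 (H2AFZ) among genes with a mean of at least 50. Centring on the median changed no direction or call. Removing the GC trend turned the direction of H2AFJ (-0.083), H2AFZ (0.18), HIST1H1E (-0.32) and HIST2H2AC (-0.24) after the deletion, and of the difference for H1FX (0.020), H2AFJ (0.12), HIST1H1B (0.20), HIST1H2AJ (0.18) and HIST1H2BH (-0.051), and none of these values passed the threshold either way. It also brought the H2AFY difference (0.71, adjusted p = 0.0335) past the threshold. Of 81 single-gene values, 75 kept direction and call with the Student t reference, 77 with the robust SD and 68 without the GC trend. The cause was not tested. No paired analysis was possible because no value per library was at hand, so the replicate block and leaving out each replicate were not run. Low counts, a wide spread for their abundance (HIST1H4C, HIST1H1C) and shared sequence each limit some HIST genes.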
